A study of Homo sapiens with 8 samples.

Results

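The 10 genes AKR1B10, AKR1C1, AKR1C2, AKR1C3, NQO1, GCLM, GCLC, HMOX1, TXNRD1 and SRXN1 were followed across 4 dose groups of bleomycin in H7-derived cells. They were taken by symbol from the 46427 symbols of the deposited count and TPM tables, and all 10 had a row and passed the filter on low counts that left 18303 genes for testing. AKR1B10, AKR1C1 and AKR1C2 were the members whose RNA was lower at 240 and 480 µg/ml by a margin that passed the test. AKR1B10 stood 7.18-fold lower at 480 µg/ml than in untreated cells, against 2.38-fold for AKR1C1 and 2.25-fold for AKR1C2. Of the other NRF2 targets TXNRD1 was 1.51-fold lower and SRXN1 1.34-fold higher at 480 µg/ml, calls that several other settings of the analysis did not keep. AKR1C3, NQO1, GCLM, GCLC and HMOX1 were called at no dose. With 2 libraries a group this does not show that they were unchanged. In data simulated for 480 µg/ml against untreated cells the test found 22.4% of 1.5-fold and 53.7% of 2-fold changes. Far fewer genes were changed there than were called in the real data, so these shares are not the power for these members. Called, rose and fell are used of genes whose adjusted p in edgeR, a test of count data over all genes, was under 0.05. For alternative settings, some of which use other software, called refers to the adjusted p of that setting at the same threshold.

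NRF2, the product of the gene NFE2L2, is a transcription factor that drives defence against oxidants and reactive chemicals. In resting cells the adaptor KEAP1 hands it to a ubiquitin ligase for destruction. Oxidants modify KEAP1, NRF2 then accumulates, pairs with a small MAF protein and binds the antioxidant response element (ARE) near its target genes, where BACH1 competes with it. Its targets include enzymes that reduce quinones, make glutathione, break down heme and keep thioredoxin and peroxiredoxins reduced. In human cells the aldo-keto reductases AKR1B10 and AKR1C1 to AKR1C3, which reduce aldehydes, ketones and steroids with NADPH, are known as strongly NRF2-dependent genes. Bleomycin is a glycopeptide drug that binds iron, forms reactive oxygen species and cuts DNA, and it injures alveolar epithelium.

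RNA was measured in 8 libraries of cells labelled as differentiated type 2 alveolar cells, made from the human embryonic stem cell line H7 with a wild-type genotype label. All groups shared the same culture: 21 days to lung progenitors, then inserts kept submerged for 3 days and at an air-liquid interface for 7 days. A control group was untreated, and 3 groups had 500 µl of bleomycin at 24, 240 or 480 µg/ml on the apical side for 24 hours, with 2 libraries in each of the 4 groups. The labels give a bleomycin stock weaker than any of the 3 doses, name no vehicle-treated group, and do not say whether the 2 libraries of a group came from separate cultures. The p-values below are therefore set against library-to-library spread that could be wholly technical. A single line was used, so nothing here speaks to other lines.

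Total counts ran from 53431773 to 67715984 per library, at which 3 counts correspond to between 0.0439 and 0.0576 CPM, the count scaled to library size. Of the 12 markers of type 2 cells on the list used, 9 were tested, while SFTPC had 0 counts in 6 of the 8 libraries and at most 7 in the others. SFTPA1 and SFTPA2, which encode the other surfactant proteins most typical of these cells, had at most 2 and 7 counts. These 3 genes, which define the labelled cell type, were at or near 0, while SFTPB stood at 14.9 and 16.9 CPM in untreated cells. Markers of hepatocytes summed to between 54420 and 56040 CPM in the untreated libraries, markers of intestinal epithelium to 2895 and 2896 CPM, and those of type 2 cells to 166.9 and 169.2 CPM. The hepatocyte sum was mostly AFP, the fetal liver protein, at 42580 and 44110 CPM. The 2 libraries of 480 µg/ml lay further apart than those of the other groups, with an SD of the log2 ratio between them of 0.637 against 0.502 to 0.52.

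AKR1C1, AKR1C2 and AKR1C3 lie side by side on chromosome 10, at 4963415 to 4983283, 4987775 to 5018000 and 5048781 to 5107686 of GRCh38.p14. Their promoters are shown so that the likeness of these near-copies can be seen. Each window holds 250 bases before and 50 bases from a RefSeq start site, read in the direction of the gene. Capitals in the AKR1C2 and AKR1C3 sequences mark bases that differ from the aligned base of AKR1C1 or stand in a gap within the alignment. Bases beyond the ends of the alignment, such as the last ones of the AKR1C2 window, are in small letters but were not compared.
AKR1C1, chr10:4963165-4963464, plus strand: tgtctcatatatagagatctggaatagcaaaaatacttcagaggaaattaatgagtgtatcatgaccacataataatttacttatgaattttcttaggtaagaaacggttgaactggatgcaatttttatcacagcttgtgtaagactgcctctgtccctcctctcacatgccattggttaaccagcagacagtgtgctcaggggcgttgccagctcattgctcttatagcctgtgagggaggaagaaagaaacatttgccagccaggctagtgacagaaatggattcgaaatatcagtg
AKR1C2, chr10:5003808-5004107, minus strand: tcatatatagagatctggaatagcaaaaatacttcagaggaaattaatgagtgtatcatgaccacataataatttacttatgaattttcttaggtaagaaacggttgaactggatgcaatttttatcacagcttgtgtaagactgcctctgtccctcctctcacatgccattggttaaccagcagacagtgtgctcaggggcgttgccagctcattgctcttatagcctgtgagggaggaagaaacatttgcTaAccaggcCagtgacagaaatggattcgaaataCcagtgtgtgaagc
AKR1C3, chr10:5094164-5094463, plus strand: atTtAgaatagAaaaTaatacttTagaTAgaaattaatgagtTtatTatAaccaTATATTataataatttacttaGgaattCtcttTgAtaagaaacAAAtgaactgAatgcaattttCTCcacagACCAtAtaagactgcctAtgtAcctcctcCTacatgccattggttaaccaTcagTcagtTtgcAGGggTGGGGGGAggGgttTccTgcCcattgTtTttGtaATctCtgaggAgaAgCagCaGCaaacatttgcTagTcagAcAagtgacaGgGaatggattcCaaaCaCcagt
The AKR1C2 window matched that of AKR1C1 at 98.6% of 292 aligned bases, with 4 mismatches and 4 gap bases. The AKR1C3 window shown matched at 79.5% of 283 aligned bases, with 58 mismatches and 17 gap bases, and a second AKR1C3 window at chr10:5048531-5048830 matched at 78.0% of 291. The AKR1C1 and AKR1C2 windows were thus nearly identical. Their transcripts share sequence too, 50.8% of the 50-base stretches of the longest protein-coding AKR1C2 transcript being found in AKR1C1. Their read counts may thus not be fully separate, as the assignment of reads that fit both is not given in the sources used here.

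The ARE was searched by its core TGACNNNGC, where N is any base, on both strands of the 300-base windows. The core was found in 13.3% of all 35116 promoter windows in the RefSeq table, so a match by itself is common. Of the members, 8 had at least 1 window in that table, and 2 of these, GCLM and TXNRD1, held the core. The stretches below are shown because these 2 genes are NRF2 targets in which the core lies close to a start site, and capitals mark the core on either strand.
GCLM, chr1:93909411-93909509, minus strand: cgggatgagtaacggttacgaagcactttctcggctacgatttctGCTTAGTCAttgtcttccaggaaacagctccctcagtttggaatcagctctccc
TXNRD1, chr12:104215635-104215733, plus strand: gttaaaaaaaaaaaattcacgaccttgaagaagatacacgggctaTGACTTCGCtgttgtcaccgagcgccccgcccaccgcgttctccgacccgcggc
TXNRD1, chr12:104286885-104286983, plus strand: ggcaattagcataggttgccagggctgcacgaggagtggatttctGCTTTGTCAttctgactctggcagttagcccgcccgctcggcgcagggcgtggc
In GCLM the core began 34 bases before the start site, on the strand opposite to the gene. TXNRD1 had it 99 and 8 bases before 1 start site and 102 bases before another, and the 2 stretches at 99 and 102 bases are printed. The core was not in the windows of AKR1C1, AKR1C2, AKR1C3, NQO1, GCLC or SRXN1, which says only that these letters are not in those 300 bases. The AP-1 motif TGANTCA, which shares letters with the ARE, was in no member's window and in 7.71% of all windows.

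AKR1B10 encodes an aldo-keto reductase of the aldose reductase subfamily that reduces retinal and lipid aldehydes and is known for high levels in the intestine. The gene lies on chromosome 7 at 134527567 to 134541412. Its level was 20.0 and 17.2 CPM in the 2 untreated libraries and 13.5 and 15.2 CPM at 24 µg/ml. It was 6.34 and 5.60 CPM at 240 µg/ml and 2.23 and 2.93 CPM at 480 µg/ml. In such bulk RNA fewer cells of a type and less RNA per cell cannot be told apart. The 4 groups did not overlap, and each was lower than the one at the next lower dose. At 480 µg/ml the libraries held 12.0% and 15.8% of the untreated mean. The log2 fold change against untreated cells was -0.37 ± 0.16 (SE) at 24 µg/ml, which was not called (edgeR adjusted p = 1). AKR1B10 fell by 1.64 ± 0.17 on the log2 scale at 240 µg/ml (edgeR adjusted p = 0.00183) and by 2.84 ± 0.18 at 480 µg/ml (edgeR adjusted p = 0.000105). Without either of the 2 libraries of 480 µg/ml the latter value was -2.67 or -3.06, and both were called.

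AKR1B15, a neighbouring near-copy of AKR1B10, had between 0 and 34 counts per library and was not called. At 480 µg/ml it had 0 counts in both libraries and lay below both untreated ones (edgeR adjusted p = 0.0825). With no filter on low counts, or with the replicate number as a block, it was called lower there (edgeR adjusted p = 0.000694 and 0.0254). Of all 50-base stretches of the longest protein-coding AKR1B10 transcript 17.4% occur in another gene, 11.6% in AKR1B15, so some reads could belong to either. A summed row for both gave -2.87 ± 0.18 at 480 µg/ml (edgeR adjusted p = 0.000105), close to AKR1B10 alone. AKR1B1, the aldose reductase gene of the same subfamily, had 18.6 and 17.0 CPM in the untreated libraries and 9.86 and 18.0 CPM at 480 µg/ml, which overlap, with a log2 fold change of -0.35 ± 0.25 (edgeR adjusted p = 0.322). Its value turned on 1 library, being -0.85 (edgeR adjusted p = 0.0045) without replicate 2 of 480 µg/ml and 0.00 without replicate 1. On the length-scaled TPM the ratio of AKR1B10 to AKR1B1 was 0.91 ± 0.0131 (SD, n = 2) in untreated cells and 0.166 ± 0.0374 at 480 µg/ml.

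**Figure D1:**
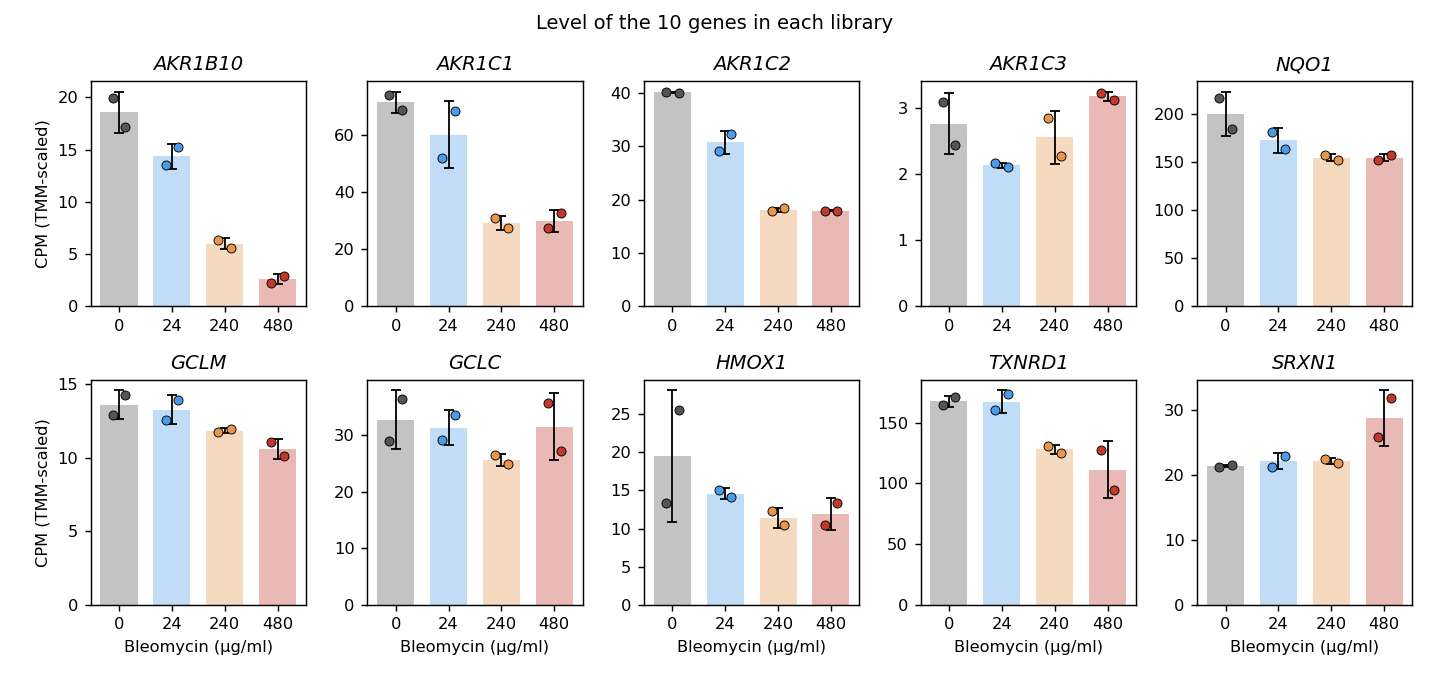
CPM of the 10 members (vertical axes, from 0) by bleomycin dose in µg/ml (horizontal axes, 0 is untreated). Bars are means, error bars SD with n = 2 and points the single libraries. AKR1B10 steps down from 20.0 and 17.2 CPM in untreated cells to 2.23 and 2.93 CPM at 480 µg/ml, AKR1C1 and AKR1C2 stand lower at both 240 and 480 µg/ml, and SRXN1 stands higher at 480 µg/ml.

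AKR1C1 and AKR1C2 encode hydroxysteroid dehydrogenases that inactivate progesterone and androgens and reduce many other carbonyls. AKR1C1 had 74.2 and 68.9 CPM in the untreated libraries, 51.9 and 68.4 CPM at 24 µg/ml, 30.8 and 27.4 CPM at 240 µg/ml and 27.3 and 32.7 CPM at 480 µg/ml. AKR1C2 had 40.2 and 40.1 CPM in the untreated libraries, 29.2 and 32.3 CPM at 24 µg/ml, 17.9 and 18.4 CPM at 240 µg/ml, and 18.0 with 17.8 CPM at 480 µg/ml. For both genes the 2 higher doses overlapped each other and lay below every library of untreated cells and of 24 µg/ml. Unlike AKR1B10, neither had a lower mean at 480 than at 240 µg/ml beyond the spread of the libraries. AKR1C1 fell by 1.30 ± 0.17 on the log2 scale at 240 µg/ml (edgeR adjusted p = 0.00393) and by 1.25 ± 0.16 at 480 µg/ml (edgeR adjusted p = 0.0011). AKR1C2 fell by 1.15 ± 0.12 and 1.17 ± 0.12 (edgeR adjusted p = 0.00167 and 0.000364). Without replicate 2 of 240 µg/ml the AKR1C1 call at that dose was lost (-1.22, edgeR adjusted p = 0.0652).

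AKR1C3 encodes the family member that makes testosterone and reduces prostaglandins. It was the least abundant member in untreated cells per length, at 5.29 ± 0.673 TPM (SD, n = 2). Its counts were 172 and 141 in untreated cells, 143 and 144 at 24 µg/ml, 148 and 139 at 240 µg/ml, then 184 and 193 at 480 µg/ml. In CPM these were 3.09 and 2.44, then 2.16 and 2.11, then 2.84 and 2.27, and 3.23 and 3.13. The libraries of 480 µg/ml stood slightly above the untreated ones, and those of 240 µg/ml overlapped them. The log2 fold change was -0.11 ± 0.21 at 240 µg/ml (edgeR adjusted p = 0.776) and 0.20 ± 0.21 at 480 µg/ml (edgeR adjusted p = 0.508). AKR1C4, the hepatic member of the subfamily, had 5 counts in 1 library and 0 in the others.

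The 3 AKR1C genes share sequence, and how reads that fit several of them were assigned is not given in the sources used here. Beside the share of AKR1C2 given with the promoters, 28.3% of the 50-base stretches of the longest protein-coding AKR1C1 transcript occur in AKR1C2. For the longest one of AKR1C3, 12.1% occur in another gene. These shares depend on the transcript taken. The separate values of AKR1C1 and AKR1C2 are therefore uncertain. A row summed over the AKR1C genes did not depend on that split and gave -1.20 ± 0.14 at 240 µg/ml (edgeR adjusted p = 0.00279) and -1.16 ± 0.14 at 480 µg/ml (edgeR adjusted p = 0.000735). The sum is mostly AKR1C1 and AKR1C2, so it carries no separate value for AKR1C3.

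The proportions among the aldo-keto reductases differed between doses, as ratios of length-scaled TPM show. AKR1C1 over AKR1C3 was 4.68 and 5.48 in the untreated libraries, 4.56 and 6.16 at 24 µg/ml, 2.04 and 2.21 at 240 µg/ml, then 1.59 and 1.93 at 480 µg/ml. AKR1C1 over AKR1C2 ranged from 0.823 to 1.15 over the 8 libraries. AKR1B10 over AKR1C1 was 0.991 ± 0.0383 (SD, n = 2) in untreated cells, 0.811 ± 0.0104 at 240 µg/ml and 0.336 ± 0.0253 at 480 µg/ml. Both the first and the last ratio separated untreated cells, 240 µg/ml and 480 µg/ml from one another without overlap. The first differed most between untreated cells and 240 µg/ml, and the last between 240 and 480 µg/ml. The 4 enzymes together made up 86.1 ± 1.22 TPM in untreated cells, 67.8 ± 8.83 at 24 µg/ml, 33.1 ± 2.62 at 240 µg/ml and 31.2 ± 2.39 at 480 µg/ml. With 2 libraries a group these ratios and sums were not tested.

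**Figure D2:**
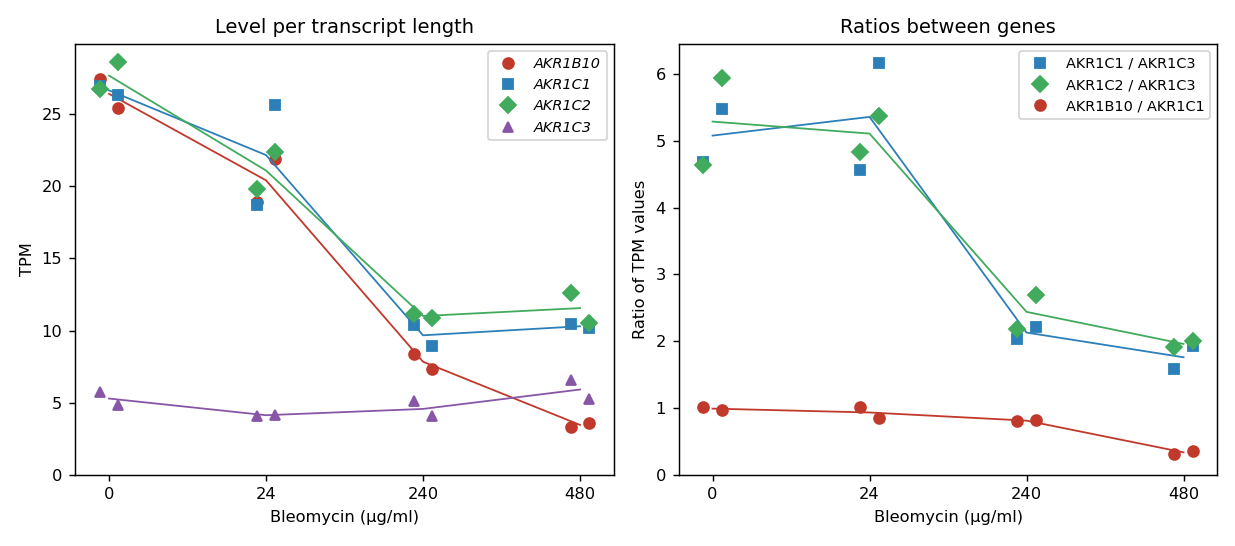
TPM of the 4 aldo-keto reductase members (left) and ratios of TPM between them (right) by bleomycin dose in µg/ml (horizontal axes, 0 is untreated), with points for the 8 libraries and lines through the group means. AKR1B10, AKR1C1 and AKR1C2 start close together at 26.4 to 27.7 TPM, AKR1B10 ends lowest at 3.46 TPM, and AKR1C3 lies between 4.05 and 6.57 TPM in every library.

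NQO1, which encodes a quinone reductase and is a standard readout of NRF2 activity, lies on chromosome 16 at 69709401 to 69726560. It was the most abundant member per length, at 184 ± 12.4 TPM in untreated cells and 137 ± 15.1 TPM at 480 µg/ml (SD, n = 2). In CPM it had 216.9 and 184.6 in untreated cells, 182.1 and 163.5 at 24 µg/ml, 157.4 and 152.0 at 240 µg/ml, then 152.5 and 157.2 at 480 µg/ml. All 4 libraries of the higher doses lay below both untreated libraries. The difference missed the threshold, with a log2 fold change of -0.38 ± 0.12 at 240 µg/ml (edgeR adjusted p = 0.0887) and -0.37 ± 0.12 at 480 µg/ml (edgeR adjusted p = 0.0512). At 480 µg/ml NQO1 was called in 7 of 16 alternative settings, with values from -0.49 to -0.26.

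GCLC and GCLM encode the catalytic and modifier subunits of glutamate-cysteine ligase, which makes the first bond of glutathione. GCLC lies on chromosome 6 at 53497341 to 53545101 and GCLM on chromosome 1 at 93885199 to 93909430. GCLM had 12.9 and 14.3 CPM in the untreated libraries, 12.5 and 13.9 CPM at 24 µg/ml, 11.7 and 12.0 CPM at 240 µg/ml and 11.1 and 10.1 CPM at 480 µg/ml. GCLC had 29.01 and 36.3 CPM in the untreated libraries, 29.1 and 33.5 CPM at 24 µg/ml, 26.4 and 24.9 CPM at 240 µg/ml and 35.6 and 27.2 CPM at 480 µg/ml. GCLM was below its untreated range at both higher doses, whereas GCLC was below it at 240 µg/ml and overlapped it at 480 µg/ml. Neither was called. GCLM had a log2 fold change of -0.20 ± 0.13 at 240 µg/ml (edgeR adjusted p = 0.373) and -0.36 ± 0.13 at 480 µg/ml (edgeR adjusted p = 0.0721), and GCLC had -0.35 ± 0.17 and -0.06 ± 0.17 (edgeR adjusted p = 0.221 and 0.835). Without replicate 1 of 480 µg/ml GCLM was called (-0.44, edgeR adjusted p = 0.0263). The TPM ratio of GCLC to GCLM was 2.95 and 3.59 in untreated cells, 3.16 and 2.93 at 240 µg/ml, then 4.53 and 3.80 at 480 µg/ml, where it lay above the untreated range.

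HMOX1 encodes heme oxygenase, which breaks heme down to biliverdin, carbon monoxide and iron and answers to both NRF2 and BACH1. It lies on chromosome 22 at 35381096 to 35394207. Its 2 untreated libraries differed, at 13.4 and 25.6 CPM. It had 15.1 and 14.1 CPM at 24 µg/ml, 12.3 and 10.4 CPM at 240 µg/ml and 10.4 and 13.3 CPM at 480 µg/ml. All treated libraries except those of 24 µg/ml were below both untreated ones, by little against replicate 1 and by more against replicate 2. The log2 fold change was -0.78 ± 0.27 at 240 µg/ml (edgeR adjusted p = 0.104) and -0.71 ± 0.27 at 480 µg/ml (edgeR adjusted p = 0.0812), and neither was called. Among 16 alternatives it was called in 6 at 240 µg/ml and in 3 at 480 µg/ml. Its value rested on the untreated libraries. Without untreated replicate 1 it was -1.18 for 240 µg/ml and -1.11 for 480 µg/ml, both called (edgeR adjusted p = 0.0476 and 0.0141), and over all alternatives it came as close to 0 as -0.24 and -0.18.

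TXNRD1 encodes the cytosolic thioredoxin reductase, which passes electrons from NADPH to thioredoxin, and lies on chromosome 12 at 104215779 to 104350307. Its level was 164.3 and 170.8 CPM in the untreated libraries, 160.3 and 173.7 CPM at 24 µg/ml, 130.5 and 125.2 CPM at 240 µg/ml and 127.7 and 94.7 CPM at 480 µg/ml. Every library of the 2 higher doses lay below every other library, and the 2 libraries of 480 µg/ml lay far apart. At 240 µg/ml the log2 fold change of -0.39 ± 0.15 was not called (edgeR adjusted p = 0.133). At 480 µg/ml TXNRD1 fell by 0.59 ± 0.15 (edgeR adjusted p = 0.0188), or 1.51-fold. This call was lost without untreated replicate 1 or replicate 2 (edgeR adjusted p = 0.0866 and 0.113), and the value was -0.83 or -0.39 without replicate 1 or 2 of 480 µg/ml. RPL18AP3, a pseudogene inside TXNRD1, had 390 to 943 counts of its own beside the 5842 to 11881 of TXNRD1.

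SRXN1 encodes sulfiredoxin, which restores overoxidised peroxiredoxins, and lies on chromosome 20 at 646615 to 653200. It was the only member called higher at any dose. It had 21.3 and 21.6 CPM in the untreated libraries, 21.2 and 23.0 CPM at 24 µg/ml, 22.4 and 21.9 CPM at 240 µg/ml and 25.8 and 31.8 CPM at 480 µg/ml. The first 3 groups were nearly level and both libraries of 480 µg/ml lay above them. The log2 fold change was 0.05 ± 0.13 at 240 µg/ml (edgeR adjusted p = 0.858), and at 480 µg/ml SRXN1 rose by 0.43 ± 0.13 (edgeR adjusted p = 0.0429), or 1.34-fold. That call was held in 4 of 16 alternative settings, with adjusted p from 0.0022 to 0.201. Leaving out any single library except replicate 1 of 480 µg/ml ended it, and without replicate 2 of 480 µg/ml the value was 0.27 (edgeR adjusted p = 0.0781). In GENCODE v29, 84.7% of the 50-base stretches of the longest protein-coding SRXN1 transcript also lie in the overlapping gene AL121758.1. That gene has no row in the table, so the reads of the 2 cannot be told apart here.

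**Figure D3:**
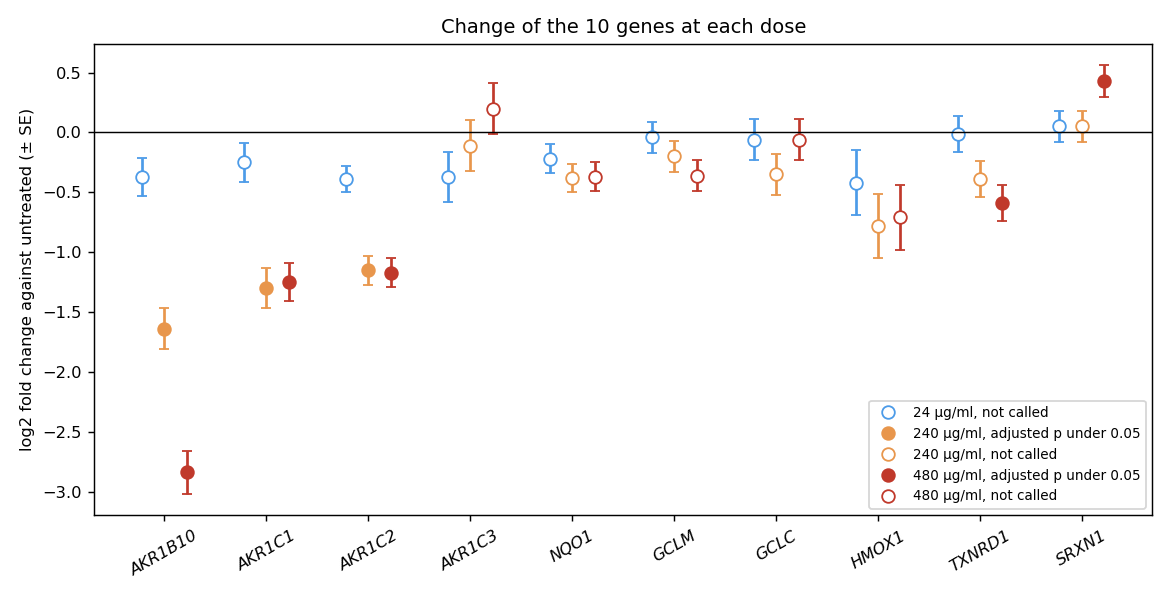
Log2 fold changes of the 10 members against untreated cells at 24, 240 and 480 µg/ml, with bars of 1 SE. Filled points have an edgeR adjusted p under 0.05 and open points do not. No point is filled at 24 µg/ml, AKR1B10, AKR1C1 and AKR1C2 are filled at 240 and 480 µg/ml, and TXNRD1 (lower) and SRXN1 (higher) are filled at 480 µg/ml.

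Counted over the members, 0 of 10 were called at 24 µg/ml, where 0% of the 18303 genes tested were called by edgeR. At unadjusted p under 0.05 edgeR gave 605 genes there, AKR1C2 among them (log2 fold change -0.39 ± 0.11, edgeR adjusted p = 1). DESeq2 called 36 genes after adjustment, none of them a member. At 24 µg/ml the members' log2 fold changes ran from -0.42 ± 0.27 (HMOX1) to 0.05 ± 0.13 (SRXN1). Of the 10 members 9 were below 0, with a median of -0.23 against 0.0054 over all genes tested. At 240 µg/ml 3 of 10 members were lower, against 5.17% of all genes called lower, and 0 were higher, against 5.16% called higher. At 480 µg/ml 4 were lower and 1 was higher, where 13.9% of all genes were called lower and 13.9% higher. The members' median was -0.38 for 240 µg/ml and -0.48 for 480 µg/ml, against 0.0091 and 0.01 over all genes. These 3 comparisons share the untreated libraries, so their results are not independent of each other. The members were chosen with earlier results of these data known, so shares above those of all genes are no test. AKR1C1 and AKR1C2, whose read counts may not be fully separate, were counted as separate members. Without untreated replicate 2 the members' median at 480 µg/ml was -0.39, against 0.03 over all genes in that fit. Without replicate 1 of 480 µg/ml it was -0.50, against 0.01.

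Between doses, the step from 24 to 240 µg/ml was the one at which AKR1C1 and AKR1C2 were called. From 24 to 240 µg/ml AKR1B10 fell by 1.27 ± 0.17 on the log2 scale, AKR1C1 by 1.05 ± 0.16 and AKR1C2 by 0.76 ± 0.12 (edgeR adjusted p = 0.00967, 0.0142 and 0.0128). These were 3 of 10 members lower and 0 higher, against 3.49% of all genes lower and 3.34% higher. None of the 3 was called once replicate 2 of 24 µg/ml or either library of 240 µg/ml was left out, with values from -1.36 to -0.69 and adjusted p from 0.0682 to 0.147. From 240 to 480 µg/ml AKR1B10 fell by a further 1.21 ± 0.18 (edgeR adjusted p = 0.0402), 1 of 42 genes called lower, which is 0.229% of all genes, while 0.0273% were called higher. This call held in 7 of 17 alternatives, with adjusted p from 2.96e-05 to 0.262. The row summed with AKR1B15 is among those that held. AKR1C1 and AKR1C2 had 0.04 ± 0.16 and -0.02 ± 0.12 over the same step (edgeR adjusted p = 0.959 and 0.978).

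The order of the members per length differed between the groups. It depends on the gene lengths used for TPM. In untreated cells the mean CPM was 71.5 for AKR1C1, 40.2 for AKR1C2 and 18.55 for AKR1B10, genes that stood close together in TPM. In untreated cells NQO1 (184 TPM) and TXNRD1 (105 TPM) led, followed by HMOX1 (29.1 TPM), AKR1C2 (27.7 TPM), AKR1C1 (26.7 TPM) and AKR1B10 (26.4 TPM), whose ranges overlapped from neighbour to neighbour. GCLC (20.2 TPM) and SRXN1 (19.5 TPM) overlapped each other, and GCLM (6.13 TPM) and AKR1C3 (5.29 TPM) were lowest. At 480 µg/ml NQO1 (137 TPM) and TXNRD1 (68.3 TPM) still led and were followed by SRXN1 (25.0 TPM). AKR1B10 (3.46 TPM) came last, below AKR1C3 (5.91 TPM) and GCLM (4.48 TPM), without overlap with either. The 10 members summed to 450 ± 14 TPM (SD, n = 2) in untreated cells, 401 ± 14.6 at 24 µg/ml, 294 ± 10.6 at 240 µg/ml and 302 ± 46.3 at 480 µg/ml.

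Likeness of pattern was measured as the mean absolute difference of mean-centred log2 CPM over the 8 libraries. AKR1C1 and AKR1C2 were nearest to each other among the members (0.115), a pair that shares sequence. GCLM and TXNRD1 were each other's nearest at 0.119, NQO1 was nearest to GCLM (0.129) and AKR1C3 to SRXN1 (0.18). The measure also places genes that vary little near each other, so these small values need not mean a shared pattern. AKR1B10 was nearest among the members to AKR1C1, at 0.539. Among all 18302 other genes tested AKR1B10 was nearest to B3GNT3 (0.114), ETV4 (0.116), E2F2 (0.125) and ARHGDIG (0.128). B3GNT3 encodes a glycosyltransferase, and ETV4 and E2F2 encode transcription factors. ETV4 had 139 and 121 CPM in the untreated libraries, 50.9 and 44.9 CPM at 240 µg/ml and 17.8 and 25.0 CPM at 480 µg/ml. These genes were chosen for their likeness, so their levels are given with no test.

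**Figure D4:**
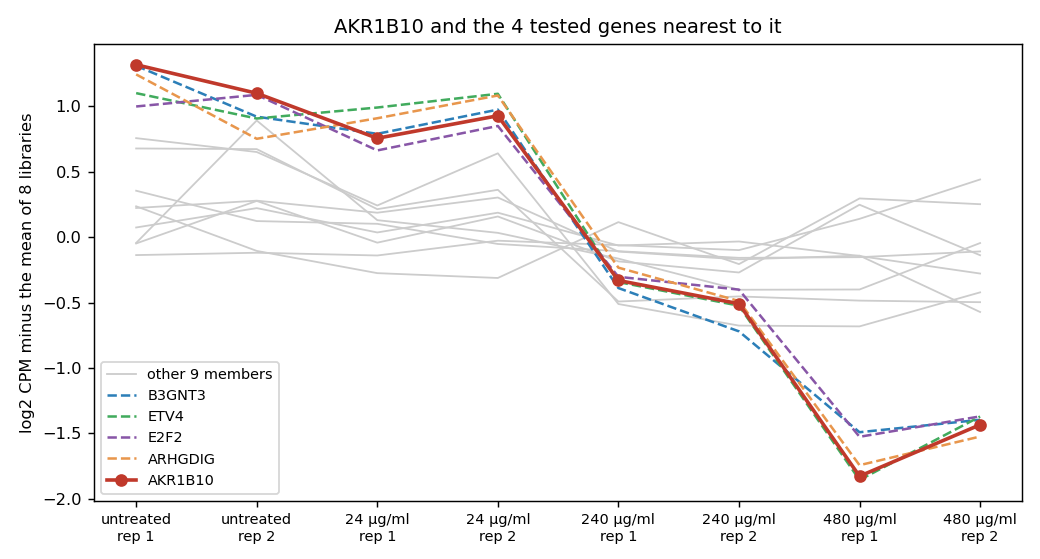
Mean-centred log2 CPM in each of the 8 libraries (horizontal axis, ordered by dose in µg/ml) for AKR1B10 (red), its 4 nearest genes of all tested (dashed) and the other 9 members (grey). AKR1B10 and B3GNT3, ETV4, E2F2 and ARHGDIG lie within mean differences of 0.114 to 0.128, while the grey lines depart from them at 480 µg/ml, the nearest being AKR1C1 at a mean difference of 0.539.

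Genes that act with or beside the members were taken as 7 lists with 110 genes in the table, of which 106 were tested. None was called at 24 µg/ml. At 240 µg/ml 9 were higher and 6 lower, where 5.16% of all genes tested were higher and 5.17% lower. At 480 µg/ml 15 were higher and 12 lower, where 13.9% of all genes were higher and 13.9% lower, shares close to those of the related genes. The related genes had a median log2 fold change of 0.03 at both doses.

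The regulators of NRF2 were mostly not called, MAFG, MAFF, PGAM5 and DPP3 being the exceptions at 480 µg/ml. NFE2L2 had 98.1 and 94.3 CPM in the untreated libraries and 90.9 and 81.6 CPM at 480 µg/ml, a log2 fold change of -0.16 ± 0.11 (edgeR adjusted p = 0.326). KEAP1 had -0.10 ± 0.14 (edgeR adjusted p = 0.634). BACH1 had -0.16 ± 0.22 (edgeR adjusted p = 0.625), with 76.7 CPM in 1 library of 480 µg/ml and 43.4 CPM in the other. Of the 15 regulators 0 were called at 240 µg/ml, and at 480 µg/ml 3 were lower and 1 higher. Over all genes 5.16% were higher and 5.17% lower at 240 µg/ml, and 13.9% in each direction at 480 µg/ml. MAFG, a partner of NRF2 in DNA binding, fell by 0.82 ± 0.12 at 480 µg/ml (edgeR adjusted p = 0.00156), from 37.4 and 37.2 CPM to 19.8 and 22.4 CPM. MAFF fell by 0.79 ± 0.18 (edgeR adjusted p = 0.0109), while MAFK, the other small MAF gene, had -0.18 ± 0.16 (edgeR adjusted p = 0.419), and DPP3, a peptidase that binds KEAP1, rose by 0.60 ± 0.16 (edgeR adjusted p = 0.0234). The MAFF and DPP3 calls were lost without either untreated library (edgeR adjusted p from 0.0521 to 0.151). Without replicate 1 of 480 µg/ml NFE2L2 had -0.25 and BACH1 -0.64, both called (edgeR adjusted p = 0.0459 and 0.00132). PGAM5 was also lower. These data measure RNA, and NRF2 protein and its binding were not measured.

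Of 30 genes of glutathione synthesis and use, 5 were higher and 2 lower at 240 µg/ml, and 6 higher and 4 lower at 480 µg/ml, against 5.16% and 5.17% of all genes at the first dose and 13.9% in each direction at the second. SLC7A11, the cystine importer that feeds glutathione synthesis and a known NRF2 target, had 26.4 and 28.3 CPM in the untreated libraries, 9.47 and 11.6 CPM at 240 µg/ml and 8.77 and 5.09 CPM at 480 µg/ml. It fell by 1.37 ± 0.23 and 1.98 ± 0.24 on the log2 scale (edgeR adjusted p = 0.0104 and 0.00075). The call at 240 µg/ml was lost without any 1 of the 4 libraries compared (edgeR adjusted p from 0.0653 to 0.0913). ABCC3, an exporter of conjugates, fell by 0.73 ± 0.13 at 480 µg/ml (edgeR adjusted p = 0.00359). Those called higher included glutathione transferases. GSTA2 had 69.6 and 78.8 CPM in the untreated libraries and 153.5 and 157.9 CPM at 480 µg/ml, where it rose by 1.07 ± 0.13 (edgeR adjusted p = 0.000746), and GSTA4 rose by 1.05 ± 0.11 (edgeR adjusted p = 0.000454). The other genes called higher at 480 µg/ml were GPX3, GSS, GSTM3 and GSTK1, and the other lower ones ABCC2 and MGST1.

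In the thioredoxin and peroxiredoxin list 3 of 15 genes were higher and 0 lower at 480 µg/ml, against 13.9% of all genes in each direction. TXNIP, which binds and inhibits thioredoxin, rose by 0.91 ± 0.13 (edgeR adjusted p = 0.00175), MSRA, which repairs oxidised methionine, by 1.02 ± 0.18 (edgeR adjusted p = 0.0038), and PRDX3 was also higher. TXN, thioredoxin itself, had -0.20 ± 0.15 (edgeR adjusted p = 0.362). Of 10 genes of NADPH supply 0 were higher and 2 lower at 480 µg/ml. These were MTHFD2, a mitochondrial folate enzyme, with -0.97 ± 0.14 (edgeR adjusted p = 0.00157), and ME1, malic enzyme, with -0.48 ± 0.15 (edgeR adjusted p = 0.0431). The ME1 call was lost without either untreated library, either library of 24 µg/ml or replicate 2 of 480 µg/ml (edgeR adjusted p from 0.0645 to 0.171). TXN was called without replicate 2 of 480 µg/ml (-0.41, edgeR adjusted p = 0.0154).

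Among the other aldo-keto reductases 1 of 8 was called at 480 µg/ml, with a median fitted value of -0.54 over the 8, AKR1B15 at 0 counts included. It was AKR1D1, the hepatic steroid reductase, which fell by 1.74 ± 0.33 (edgeR adjusted p = 0.00515), from 2.79 and 3.54 CPM to 0.859 and 1.04 CPM. Of 16 quinone, carbonyl and conjugating enzymes 2 were higher and 1 lower at both 240 and 480 µg/ml. For the counts in this paragraph, the shares over all genes were 5.16% higher and 5.17% lower at 240 µg/ml. At 480 µg/ml they were 13.9% in each direction. EPHX1, microsomal epoxide hydrolase, rose by 1.29 ± 0.16 at 480 µg/ml (edgeR adjusted p = 0.000822), UGT2B7, a glucuronosyltransferase, rose by 0.91 ± 0.16 (edgeR adjusted p = 0.00404), and UGDH, which makes the sugar donor of glucuronidation, fell by 0.94 ± 0.13 (edgeR adjusted p = 0.0014). Of 12 heme and iron genes 3 were higher and 1 lower at 480 µg/ml. FTL, the ferritin light chain, had 4345 and 3686 CPM in the untreated libraries, 8604 and 8238 CPM at 240 µg/ml and 10650 and 15610 CPM at 480 µg/ml. It rose by 1.71 ± 0.18 (edgeR adjusted p = 0.000473), FECH, which inserts iron into heme, rose by 0.71 ± 0.16 (edgeR adjusted p = 0.0105), and TFRC, the transferrin receptor, fell by 1.36 ± 0.17 (edgeR adjusted p = 0.000992). The FECH call was lost without either untreated library (edgeR adjusted p = 0.0912 and 0.06). The calls of EPHX1, UGT2B7 and UGDH at 240 µg/ml were lost without either untreated library or without replicate 2 of 240 µg/ml (edgeR adjusted p from 0.0506 to 0.216). SLC40A1 was also higher. HMOX1 was not called.

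**Figure D5:**
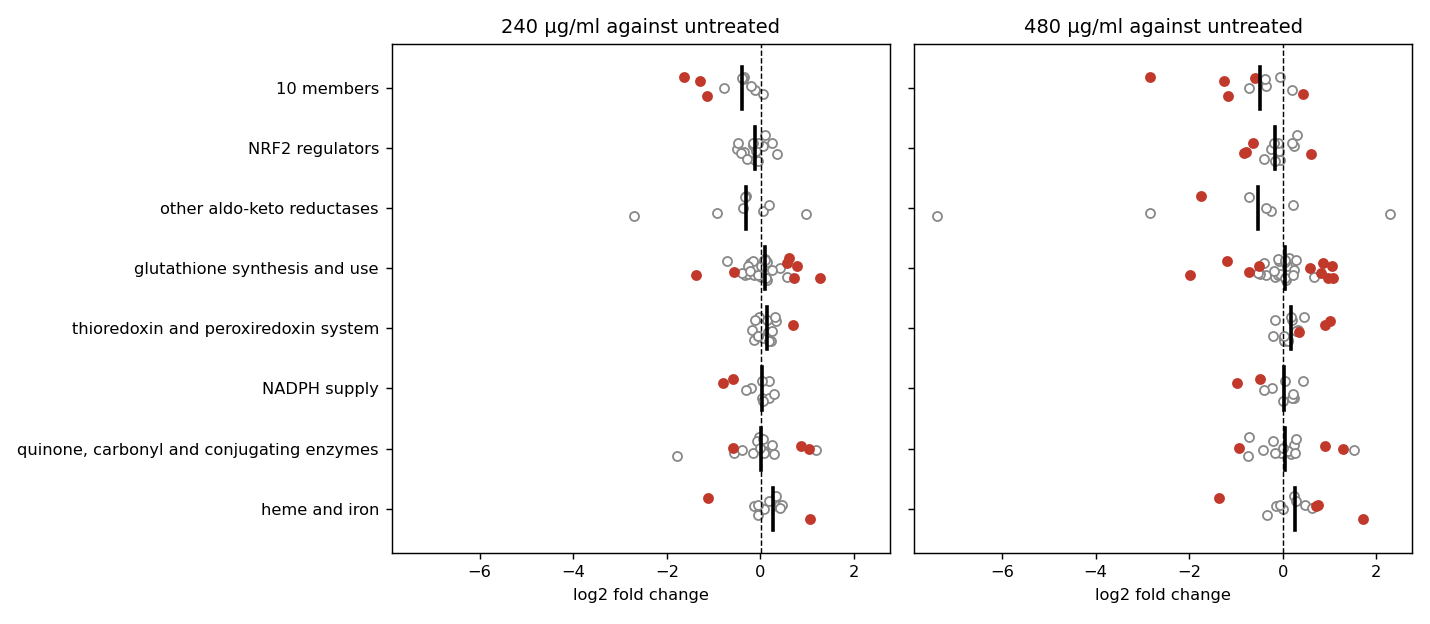
Log2 fold changes against untreated cells at 240 and 480 µg/ml for the 10 members and the 7 lists of related genes, 1 point a gene. Red points have an edgeR adjusted p under 0.05, the thick bar is the list's median and the dashed line the median of all genes tested. The members' medians of -0.38 and -0.48 lie below the dashed line, and red points lie on both sides of it. The point farthest left is AKR1B15, at 0 counts in both libraries of 480 µg/ml, where the fitted value is not a measured size.

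Markers of several cell types also differed between the groups. Beside the counts of markers below, 13.9% of all genes tested were called lower and 13.9% higher at 480 µg/ml. The type 2 cell list summed to 121.5 and 122.3 CPM at 240 µg/ml and 99.7 and 109.1 CPM at 480 µg/ml, below both untreated libraries. Of its 9 tested markers 4 were lower and 1, ABCA3, was higher at 480 µg/ml. The intestinal list ranged from 2691 to 3295 CPM at 240 µg/ml and from 2799 to 3206 CPM at 480 µg/ml, which spans the untreated values, and 3 of its 11 tested markers were lower and 1, CDX2, higher at 480 µg/ml. The hepatocyte list ranged from 79420 to 86250 CPM at 240 µg/ml and from 67150 to 71480 CPM at 480 µg/ml, above both untreated libraries, with 5 of 11 tested markers higher at 480 µg/ml and 0 lower. AFP, which makes up most of that sum, was not called at 240 µg/ml (0.52 ± 0.16, edgeR adjusted p = 0.0684) or 480 µg/ml (0.20 ± 0.16, edgeR adjusted p = 0.37). The airway secretory list, in which SCGB3A1, BPIFA1 and CYP2F1 were at 0 in all libraries, had 5.84 and 7.05 CPM without bleomycin against 2.37 and 2.67 CPM at 480 µg/ml. The mesenchymal list overlapped between the groups, with 430.7 to 489.6 CPM at 480 µg/ml against 463.7 to 501.7 CPM, although 5 of its 8 markers were lower. The leukocyte list had 178.1 and 199.4 CPM at 480 µg/ml against 217.2 and 258.2 CPM. Its sum is mostly LYZ and CD68, neither called, and of its 5 tested markers 1 was called higher and 0 lower at 480 µg/ml, with a median log2 fold change of 0.20. The one called was PTPRC, which had 0 counts in both untreated libraries and 22 and 16 at 480 µg/ml (edgeR adjusted p = 0.0101). The part of these cell types in the members' values was not tested.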

How the data were processed

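Per the labels' protocols, a stranded mRNA kit was used on 1 µg of total RNA per library. Per the submitters' processing notes, the tools were HISAT2, Bowtie2, StringTie and Trimmomatic and the build was GRCh38, with versions, annotation release and counted strand not given in the sources used here. The authors deposited raw read counts per gene symbol, TPM values (per length, with the same total in each library) and FPKM values. The deposited FPKM values were proportional to TPM within a library, to within 0.000772%, and were used only for that check.

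Counts were tested with edgeR 4.0.16 in R 4.3.3: TMM factors, filterByExpr (minimum count 10, total 15), 1 quasi-likelihood model of all 8 libraries whose sole term was the dose group, Benjamini-Hochberg adjustment over 18303 genes and a threshold of 0.05, with 4 residual and 4.98 prior degrees of freedom. The SE is the log2 fold change divided by the square root of F. Alternatives used DESeq2 1.42.0, limma 3.58.1 on log2(TPM + 1) and log2(TPM + 0.1), RLE factors, other filters, fewer libraries, a replicate block and rows summed over paralogs. The method was tested on simulated data for 480 µg/ml against untreated cells over 17934 genes, where it recovered 22.4% of 67 changes of 1.5-fold, 53.7% of 67 of 2-fold and 87.9% of 66 of 4-fold, with 8 false calls. In the real data 5085 genes were called at that dose, which eases the adjusted threshold. The simulated shares therefore do not give the power for the members. Coordinates and promoters are from RefSeq GRCh38.p14, whose symbols match 42658 of the table. Shared sequence was counted in GENCODE v29, from the longest protein-coding transcript of each gene against all transcripts of other genes.

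All 10 members are named in every comparison, with a fixed set of related genes, 1 of which is not reported here, and from each list of related genes up to 2 per direction of smallest p among those called at 480 µg/ml. PGAM5, GPX3, GSS, GSTM3, GSTK1, ABCC2, MGST1, PRDX3, SLC40A1 and the marker genes were named after their values were seen. The members and lists were chosen with earlier results of these data known.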

Additional observations from a re-analysis of the deposited data

How the results depend on the processing

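AKR1B10 and AKR1C2 at 240 and 480 µg/ml, and AKR1C1 at 480 µg/ml, were called lower than untreated in all 17 alternatives run. Among the 17 is the row summed with paralogs, which is not a separate value of the gene. Over all comparisons and alternatives the members gave 710 values with direction and call kept, 32 with a call gained, 38 with a call lost, 38 uncalled values of changed sign and 2 reversed ones. The reversed ones are AKR1C3 in the row summed over the AKR1C genes (-1.16 at 480 µg/ml against untreated and -0.90 at 240 against 24 µg/ml), which by its construction is mostly AKR1C1 and AKR1C2.

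Genes called at 24 µg/ml (0 as reported) were 36 with DESeq2, 83 with no filter on low counts, 14 with only the libraries of the 2 groups compared and 1 with limma on log2(TPM + 0.1). At 240 µg/ml (1892) they were 2907 with no filter and 5399 with the 2 groups only, and at 480 µg/ml (5085) 2858 with the 2 groups only. For 240 against 24 µg/ml (1250) they were 2015 with DESeq2, 2375 with no filter, 4341 with the 2 groups only, 621 with the replicate block, and 783 and 682 with limma on log2(TPM + 1) and log2(TPM + 0.1). For 480 against 240 µg/ml (47) they were 324, 465, 0, 8, 11 and 12 in the same order. Members called with the 2 groups only were 7 at 240 µg/ml (3 as reported), 3 at 480 µg/ml (5) and 0 for 480 against 240 µg/ml (1), where the replicate block and both limma fits also gave 0. The cause of these shifts was not tested.

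Leaving out 1 library in turn gave 0 to 24 genes at 24 µg/ml, 120 to 4982 at 240 µg/ml, 2248 to 7889 at 480 µg/ml, 0 to 4630 for 240 against 24 µg/ml and 0 to 1471 for 480 against 240 µg/ml. Members called were 2 to 6 at 240 µg/ml, 3 to 7 at 480 µg/ml, 0 to 4 for 240 against 24 µg/ml and 0 to 3 for 480 against 240 µg/ml. A lone library left in a group is assumed there to vary like the other groups.

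With limma on log2(TPM + 1) and log2(TPM + 0.1) the split of genes higher and lower at 240 µg/ml was 539 to 853 and 540 to 781, against 945 to 947, and for 240 against 24 µg/ml 277 to 506 and 245 to 437, against 612 to 638. Same-numbered libraries did not deviate together over all genes (correlations from -0.0797 to 0.0449). Such low values cannot tell whether equal numbers mark a shared culture or day, which the labels do not say. With the replicate block 1289 genes were called at 240 µg/ml and 4385 at 480 µg/ml, with 3 and 4 members. The lowest member counts were 127 and 181 for AKR1B10 at 480 µg/ml and 139 to 193 over all libraries for AKR1C3.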
